A study of Homo sapiens with 12 samples.

Results

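The enzymes of glycolysis and of the tricarboxylic acid (TCA) cycle were examined as a group of 37 genes, chosen by name from the pathways, with earlier results of these data known. All 37 were among the 14438 genes of the count table and among the 14263 genes tested. The cells were HEK293T, a line derived from human embryonic kidney, and 4 derivatives were sequenced, made by infection with lentivirus that carried EZH2 WT, the gain-of-function (GOF) mutants EZH2 Y641F or EZH2 A677G, or the loss-of-function (LOF) double mutant EZH2 H689A/F667I, called WT, Y641F, A677G and LOF from here on. Each line had 3 replicates, 12 samples in all, and WT was the control. EZH2 is the catalytic subunit of Polycomb repressive complex 2, which methylates histone H3 at lysine 27. According to the study's methods, infected cells were selected with blasticidin to obtain monoclonal populations, so that a line may stand for few founder cells, and these methods describe no removal of the cells' own EZH2 gene. Lines without introduced EZH2 were not analysed here. The study calls the replicates biological, but the labels do not say that they were separate infections, so the p-values measure the spread between samples of 1 line.

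Glycolysis turns glucose into pyruvate in the cytosol, with hexokinase, phosphofructokinase and pyruvate kinase at its controlled steps. Pyruvate is either reduced to lactate by lactate dehydrogenase or carried into mitochondria, where the pyruvate dehydrogenase complex makes acetyl-CoA for the TCA cycle. Most steps are served by a family of isoenzymes from separate genes, and proliferating cell lines such as HEK293T are known for strong glycolysis.

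Total counts per sample were between 32137700 and 44562413, of which the 37 enzymes took between 1.34% and 1.38%. Among the genes fixed as HEK293T markers, *VIM* was between 244 and 272 CPM (counts scaled to a library of 1e+06 counts, scaled by the trimmed mean of M-values, TMM) and *KRT18* between 29.8 and 39.3 CPM, while *PAX2* was between 0 and 0.594 CPM. Of the markers of other cells, 7 were not among the genes of the table (*PTPRC*, *MS4A1*, *CD3E*, *PECAM1*, *CDH5*, *DCN* and *ALB*). Of those in the table, *COL1A1* was between 5.43 and 9.72 CPM and *COL3A1* between 2.69 and 11.6 CPM. *COL3A1* was higher in Y641F cells, by 1.34 on the log2 scale, and in A677G cells, by 0.93, and its part in the results was not tested. *EZH2*, counted with the introduced and the endogenous transcript together, had a mean of 158 CPM in WT cells, 218 CPM in Y641F cells, 173 CPM in A677G cells and 208 CPM in the LOF line. Replicate 1 of Y641F cells stood apart from the other 2 replicates of its line on the first principal component of all genes, at 5.60 against 17.7 and 17.1.

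The level of each transcript was compared between genes as CPM per kilobase of transcript. The most abundant was *GAPDH*, glyceraldehyde-3-phosphate dehydrogenase, with a mean over all samples of 1468 CPM per kilobase. It was followed by *ENO1*, the widespread enolase, at 1221, by *LDHB* at 1025, by the triosephosphate isomerase *TPI1* at 620, by the aldolase *ALDOA* at 541, by the pyruvate kinase *PKM* at 489 and by *LDHA* at 452 CPM per kilobase. The 7 most abundant enzymes were thus all of glycolysis or lactate dehydrogenase, and the first TCA cycle enzymes in the order were the cytosolic and mitochondrial malate dehydrogenases *MDH1* and *MDH2*, at 146 and 133 CPM per kilobase. At the other end were *ACO1*, the cytosolic aconitase that also acts as an iron-regulatory protein, at 9.29, the pyruvate carboxylase *PC* at 6.60, *ALDOC*, the aldolase known from brain, at 5.18, and *ENO2*, the enolase of neurons, at 1.97 CPM per kilobase. A row of the table is a gene, so that the muscle and proliferation forms of pyruvate kinase, which are splice forms of *PKM*, were counted together.

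**Figure D1:**
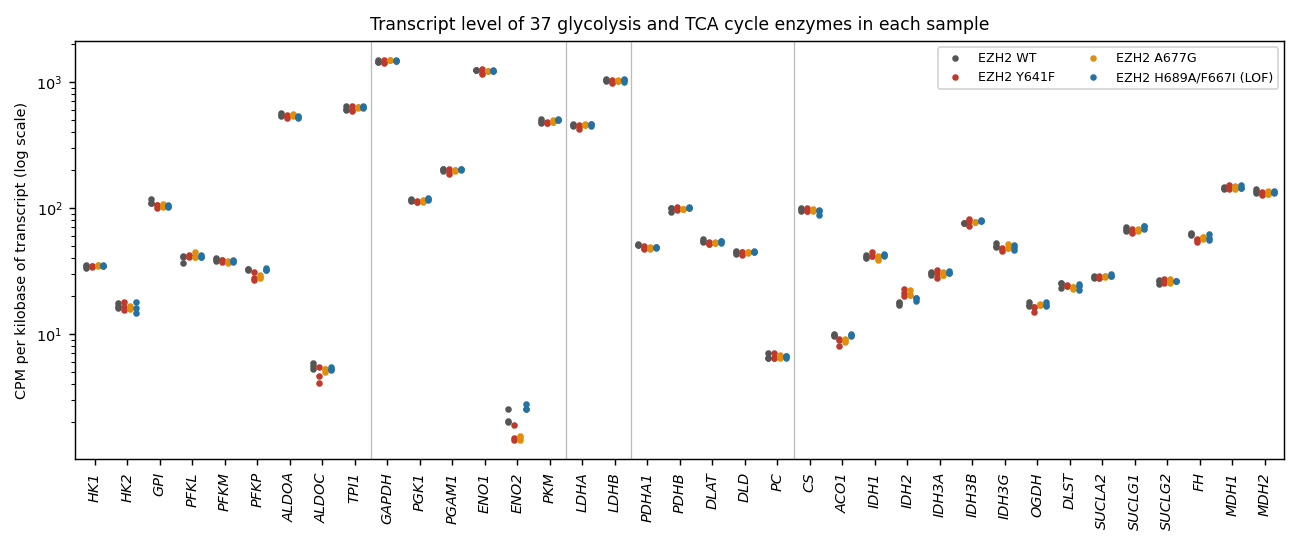
Level of each of the 37 enzymes in each of the 12 samples, as CPM per kilobase of transcript on a log axis, with 1 point per sample and colours for the lines; vertical lines part upper glycolysis, lower glycolysis, lactate dehydrogenase, pyruvate entry and TCA cycle. The genes span from *GAPDH* at a mean of 1468 to *ENO2* at 1.97 CPM per kilobase, and the points of the 4 lines lie close together at most genes.

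Summed over a pathway section, the levels of the 4 lines lay close together. Upper glycolysis (9 genes from hexokinase to *TPI1*) summed to 1447 ± 46.8 CPM per kilobase (SD, n = 3) in WT cells, 1411 ± 43.7 in Y641F cells, 1443 ± 15.6 in A677G cells and 1429 ± 18.6 in the LOF line. Lower glycolysis (6 genes from *GAPDH* to *PKM*) summed to 3510 ± 51.3 CPM per kilobase (SD, n = 3) in WT cells, 3428 ± 106 in Y641F cells, 3505 ± 21.4 in A677G cells and 3527 ± 42.4 in the LOF line. In both sections the samples of each mutant overlapped with those of WT. The TCA cycle, with 15 genes, summed to 828 ± 9.76 CPM per kilobase (SD, n = 3) in WT cells, 816 ± 12.8 in Y641F cells, 819 ± 2.99 in A677G cells and 827 ± 6.57 in the LOF line. The 5 genes of pyruvate entry had sums of 255 ± 6.15, 249 ± 4.24, 250 ± 1.69 and 254 ± 2.46 CPM per kilobase in the same order (SD, n = 3), and the 2 lactate dehydrogenase genes 1497 ± 13.8, 1446 ± 33.1, 1479 ± 9.46 and 1485 ± 34.6. For lactate dehydrogenase, the 3 samples of Y641F were below the 3 of WT cells, while the other mutants overlapped with it. These sums are dominated by the few most abundant genes and were given no test.

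Each mutant was next compared with WT cells gene by gene, by the quasi-likelihood test of edgeR, and a gene counted as past the threshold when its Benjamini-Hochberg adjusted p, taken across the whole table, was under 0.05. In Y641F, 4 of the 37 enzymes were lower (*PFKP*, *GPI*, *ACO1* and *FH*), which is 10.8% of them against 5.59% of all genes tested, and 1 was higher (*IDH2*), 2.7% against 2.09%. In A677G, 2 were lower (*PFKP* and *ENO2*), 5.41% against 6.48% of all genes, and 1 was higher (*IDH2*), 2.7% against 2.07%. In the LOF line 0 enzymes were lower and 0 higher by the same test, where 0.161% of all genes tested were lower and 0.14% higher. Without adjustment 2 enzymes, *GPI* and *IDH2*, had p-values under 0.05 in the LOF line, 5.41% against 8.30% of all genes tested. DESeq2, limma voom and edgeR's exact test also called 0 enzymes there after adjustment. Of the 14263 genes tested, these 3 methods called 33, 55 and 88 lower and 30, 44 and 58 higher in that line. Between Y641F and A677G cells, 0 enzymes differed by edgeR's quasi-likelihood test, against 0.0841% of all genes tested, and 1 had an unadjusted p-value under 0.05. In such bulk samples, fewer cells with a transcript and less of it per cell cannot be told apart. The 3 comparisons with WT cells share its samples and are not independent of each other.

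Counted by samples that did not overlap, 10 enzymes separated Y641F from WT cells, while 20.9% of all genes tested did so. The same count was 11 enzymes for A677G, against 27.2% of all genes, and 5 for the LOF line, against 15% of all genes. These are 27.0%, 29.7% and 13.5% of the enzymes, near the shares for all genes. The median log2 fold change of the enzymes was −0.04 in Y641F cells, with 28 of 37 below 0 (75.7% against 49.0% of all genes tested). It was −0.02 in A677G cells, with 27 of 37 below 0 (73.0% against 48.3%), and the medians over all genes were 0.00. With the GC trend and the mean log level of each sample removed, those medians of the enzymes were 0.00 and 0.04, beside 0.03 and 0.06 over all genes, so that under this scaling too they lay below those of all genes. The median of the enzymes in the LOF line was 0.01, with 15 of 37 below 0 (40.5% against 48.8% of all genes tested).

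The spread between replicates was small at these genes, with a median biological coefficient of variation of 0.0334 against 0.0522 over all genes tested. The 95% interval of the log2 fold change lay between −0.2 and 0.2 for 29 enzymes in Y641F cells, for 32 in A677G cells and for 34 in the LOF line, that is 78.4%, 86.5% and 91.9% of them. Over all genes tested, which include many with fewer counts, these shares were 42.7%, 42.3% and 46.5%. Changes beyond that bound were thus outside the interval for most of the enzymes.

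**Figure D2:**
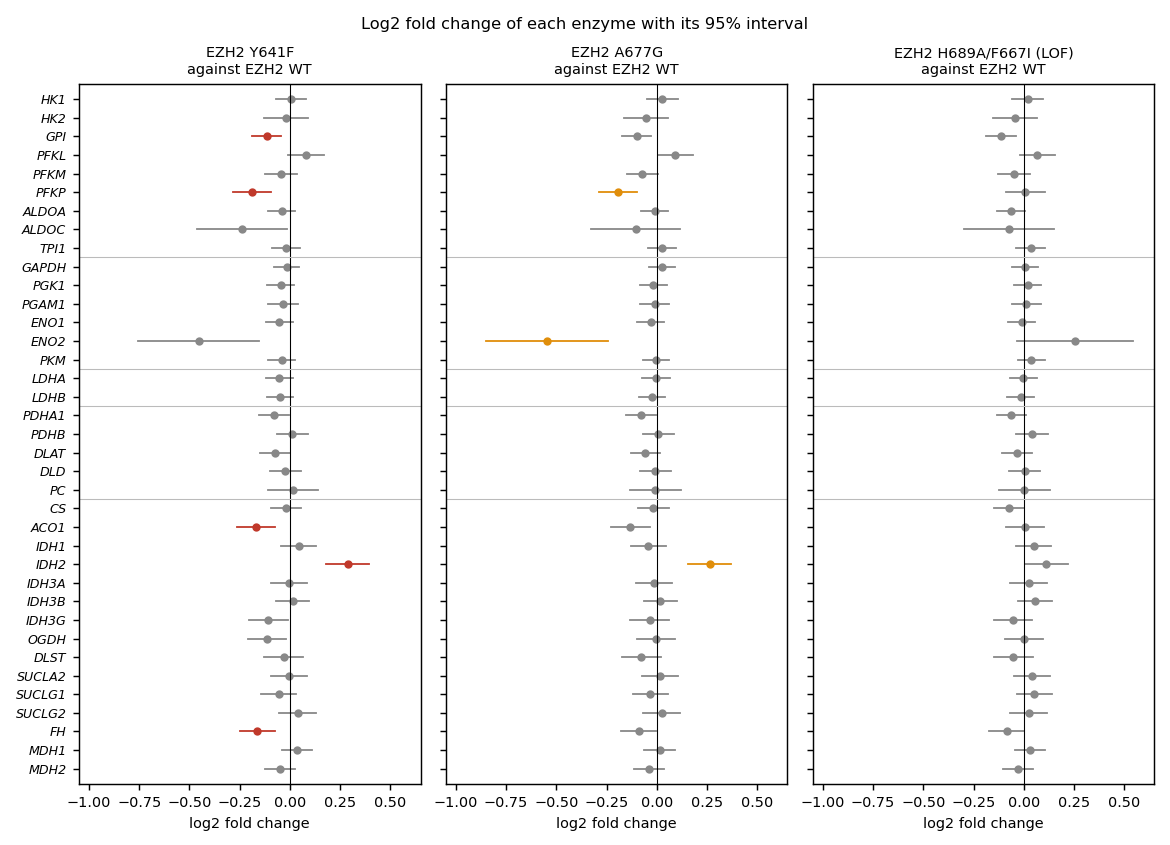
Log2 fold change of each enzyme (points) with its 95% interval (lines) in Y641F cells, A677G and the LOF line against WT cells, in pathway order from top to bottom; coloured points had an adjusted p-value under 0.05 and grey points did not. The largest values are at *ENO2*, with −0.45, −0.55 and 0.26, and at *IDH2*, with 0.29, 0.26 and 0.11, while most other intervals lie within 0.2 of 0.

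The 4 enzymes that differed between the GOF lines and the LOF line when these were compared directly, *PFKP*, *ENO2*, *ACO1* and *IDH2*, are described first. As they were picked by that test, a separation of their GOF from their LOF samples adds no support to it. The mean of Y641F and A677G cells was lower than the LOF line at 3 enzymes and higher at 1, which is 8.11% against 8.75% of all genes tested and 2.7% against 3.81%. Polycomb repressive complex 2 is known to act at promoters rich in unmethylated CG dinucleotides, so the promoters of these 4 are shown here, as 300 bases of GRCh38 on the strand of the gene, from 250 bases before the start of its main transcript to 50 bases from the start on. Capitals mark each CG. *PFKP* lies on the plus strand, with the window at chr10:3067298-3067597, *ENO2* on the plus strand at chr12:6914330-6914629, *ACO1* on the plus strand at chr9:32384393-32384692 and *IDH2* on the minus strand at chr15:90102419-90102718.
PFKP: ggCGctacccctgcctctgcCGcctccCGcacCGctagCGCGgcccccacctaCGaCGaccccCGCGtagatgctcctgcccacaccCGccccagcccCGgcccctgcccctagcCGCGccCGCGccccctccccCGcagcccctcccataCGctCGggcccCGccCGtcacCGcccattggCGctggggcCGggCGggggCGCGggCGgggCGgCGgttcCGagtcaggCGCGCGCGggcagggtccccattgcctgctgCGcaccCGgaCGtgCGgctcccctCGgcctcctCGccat
ENO2: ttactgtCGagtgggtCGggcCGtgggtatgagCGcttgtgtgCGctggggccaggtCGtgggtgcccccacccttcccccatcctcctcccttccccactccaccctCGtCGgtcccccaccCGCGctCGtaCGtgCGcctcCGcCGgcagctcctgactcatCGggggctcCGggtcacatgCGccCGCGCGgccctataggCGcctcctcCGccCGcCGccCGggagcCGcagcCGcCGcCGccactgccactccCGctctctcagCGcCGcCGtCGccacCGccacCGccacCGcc
ACO1: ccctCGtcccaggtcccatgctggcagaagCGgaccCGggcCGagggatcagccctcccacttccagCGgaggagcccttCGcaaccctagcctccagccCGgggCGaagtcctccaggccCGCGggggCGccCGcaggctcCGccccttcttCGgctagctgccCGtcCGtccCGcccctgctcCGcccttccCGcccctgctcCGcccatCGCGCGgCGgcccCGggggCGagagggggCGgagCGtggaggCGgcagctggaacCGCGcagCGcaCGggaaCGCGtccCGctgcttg
IDH2: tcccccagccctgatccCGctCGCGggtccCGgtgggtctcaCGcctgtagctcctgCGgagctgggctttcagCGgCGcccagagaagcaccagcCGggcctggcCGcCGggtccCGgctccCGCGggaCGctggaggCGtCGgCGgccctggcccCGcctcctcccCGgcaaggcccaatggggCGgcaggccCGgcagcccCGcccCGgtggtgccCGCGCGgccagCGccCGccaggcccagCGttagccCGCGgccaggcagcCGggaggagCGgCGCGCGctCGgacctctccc

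The *PFKP* window held 41 CG, that of *ENO2* 38, that of *ACO1* 36 and that of *IDH2* 38. Among windows of the same length at 13907 of the genes tested, 13.7% held at least as many CG as *PFKP*, 19.9% at least as many as *ENO2* or *IDH2* and 25.2% at least as many as *ACO1*. The median was 29 CG over the 37 enzymes and 27 over all windows, with *PFKM* lowest at 6 and *HK1* and *PGAM1* highest at 44. *IDH2* and *ENO2*, whose log2 fold changes had opposite signs in the GOF lines, held the same number. Whether the number of CG is linked to these changes was not tested. The core of the hypoxia response element, searched on both strands as ACGTG or GCGTG, was found in 28 of 37 windows (75.7%) against 64.1% of all windows, and 1 time in each of the windows printed.

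*PFKP* (ENSG00000067057.19, chromosome 10 of GRCh38, 3066333 to 3137718) encodes the platelet form of phosphofructokinase, the committed step of glycolysis. Its level was 86.1, 83.6 and 85.7 CPM in the replicates of WT, 81.5, 73.0 and 69.7 CPM in Y641F cells, 76.2, 72.8 and 74.4 CPM in A677G cells, and 87.7, 84.8 and 84.3 CPM in the LOF line. Every GOF sample was below every sample of WT and LOF cells, and WT cells and the LOF line overlapped. The log2 fold change was −0.19 in Y641F cells (SE 0.0469, edgeR quasi-likelihood adjusted p = 0.00759) and −0.19 in A677G cells (SE 0.0469, edgeR adjusted p = 0.00529). It was 0.01 in the LOF line, with a 95% interval from −0.09 to 0.10, and the GOF lines were 0.20 below the LOF line on that scale (log2 difference −0.20, SE 0.0404, edgeR adjusted p = 0.000517). Without replicate 3 of Y641F the change in that line was −0.14 (edgeR adjusted p = 0.0838).

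The other phosphofructokinases did not pass the threshold in these comparisons. *PFKL*, the liver form, had log2 fold changes of 0.08, 0.09 and 0.07 in Y641F cells, A677G and the LOF line, and *PFKM*, the muscle form, of −0.04, −0.07 and −0.05. Within a library, where no scaling between libraries enters, the log2 ratio of *PFKP* to *PFKL* counts was −0.43 ± 0.0954 in WT cells (SD, n = 3), −0.70 ± 0.111 in Y641F cells, −0.71 ± 0.0839 in A677G cells and −0.49 ± 0.00545 in the LOF line. The GOF samples were all below the others. Each GOF line against WT cells gave p = 0.1 by a two-sided exact permutation test, the smallest that 3 against 3 allow, and 0.3 after Benjamini-Hochberg adjustment over 30 comparisons of isoenzyme ratios. Per kilobase of transcript, there were 0.825 *PFKP* for each *PFKL* in WT cells, 0.683 in Y641F cells, 0.676 in A677G cells and 0.789 in the LOF line. The log2 ratio of *PFKM* to *PFKL* differed from WT cells by −0.13 in Y641F cells, −0.17 in A677G cells and −0.12 in the LOF line, each at p = 0.1 by the same exact permutation test and 0.3 after adjustment. These differences rested mainly on replicate 3 of WT, without which they were −0.05, −0.09 and −0.05.

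*ENO2* (ENSG00000111674.9, chromosome 12, 6913745 to 6923698), the neuronal enolase, was the least abundant enzyme of the group. Its level was 5.85, 4.53 and 4.68 CPM in WT cells, 4.33, 3.39 and 3.26 CPM in Y641F cells, 3.50, 3.29 and 3.51 CPM in A677G cells, and 5.84, 5.76 and 6.39 CPM in the LOF line. All GOF samples were below all WT and LOF samples. The log2 fold change was −0.55 in A677G cells (SE 0.149, edgeR quasi-likelihood adjusted p = 0.0142), while in Y641F cells it was −0.45 and just missed the threshold (SE 0.148, edgeR adjusted p = 0.0517), which it passed with DESeq2 and with upper-quartile factors. In the LOF line it was 0.26 (edgeR adjusted p = 0.672), with a 95% interval from −0.04 to 0.55. The GOF lines differed from the LOF line by −0.76 (SE 0.124, edgeR adjusted p = 2.56e-05), the largest such difference among the 37 enzymes. Without replicate 1 of WT the change in A677G cells was −0.42 (edgeR adjusted p = 0.143) and without replicate 2 of A677G −0.52 (edgeR adjusted p = 0.0641).

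*ENO2* was also in the list of HEK293T markers, with other neuronal genes. *NEFM*, a neurofilament gene of that list, was lower in all 3 mutants, with means of 185 CPM in WT cells, 126 in Y641F cells, 91.0 in A677G cells and 145 in the LOF line, and *INA*, the other neuronal filament of the list, had log2 fold changes of −0.16, 0.06 and 0.02 and did not pass the threshold. Their part in the *ENO2* result was not tested. *ENO1* had log2 fold changes of −0.05, −0.03 and −0.01 in the same order. Per kilobase, *ENO2* amounted to 0.00176 of *ENO1* in WT cells, 0.00134 in Y641F cells, 0.00123 in A677G cells and 0.00212 in the LOF line. The log2 ratio of the 2 enolases differed from WT cells by −0.40 in Y641F cells, −0.51 in A677G cells and 0.28 in the LOF line (two-sided exact permutation tests, p = 0.2, 0.1 and 0.2, and 0.4, 0.3 and 0.4 after Benjamini-Hochberg adjustment over the 30 comparisons). *ENO1* was thus the far more abundant enolase transcript in every line.

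*IDH2* (ENSG00000182054.10, chromosome 15, 90083045 to 90102477), the mitochondrial isocitrate dehydrogenase that makes NADPH, was the only enzyme of the 37 that rose in a comparison with WT cells by this test. With the GC trend and mean log level of each sample removed, *PFKL* also rose in A677G cells. Under that scaling 1090 of the 14263 genes tested rose there, against 295 in the main fit. The level of *IDH2* was 47.2, 47.0 and 44.8 CPM in WT cells, 60.4, 56.0 and 53.2 CPM in Y641F cells, 53.8, 54.3 and 58.9 CPM in A677G cells, and 50.8, 48.4 and 51.0 CPM in the LOF line. The groups were ordered without overlap, with WT cells lowest, the LOF line next and the samples of both GOF lines highest. The log2 fold change was 0.29 in Y641F cells (SE 0.0521, edgeR quasi-likelihood adjusted p = 0.000207) and 0.26 in A677G cells (SE 0.0522, edgeR adjusted p = 0.000567). In the LOF line it was 0.11, with a 95% interval from 0.004 to 0.22 and an edgeR adjusted p of 0.569. The GOF lines were above the LOF line by 0.16 (SE 0.0453, edgeR adjusted p = 0.0114). Without replicate 2 of the LOF line this difference was 0.14 (edgeR adjusted p = 0.0977).

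*IDH1*, the cytosolic NADPH-making enzyme, had log2 fold changes of 0.04, −0.04 and 0.05 in Y641F cells, A677G and the LOF line. The 3 subunits of the NAD-dependent enzyme of the TCA cycle, *IDH3A*, *IDH3B* and *IDH3G*, ran from −0.11 (*IDH3G* in Y641F cells) to 0.05 (*IDH3B* in the LOF line), and none passed the threshold by the same edgeR test. The transcripts of *IDH1* per kilobase were 2.36 times those of *IDH2* in WT cells, 1.99 times in Y641F cells, 1.91 times in A677G cells and 2.25 times in the LOF line. The log2 ratio of their counts differed from WT cells by −0.24 in Y641F cells and −0.31 in A677G cells, each with p = 0.1 by a two-sided exact permutation test (0.3 adjusted over the 30 comparisons). For the LOF line the difference was −0.06 (p = 0.2 by the same exact test, 0.4 adjusted).

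**Figure D3:**
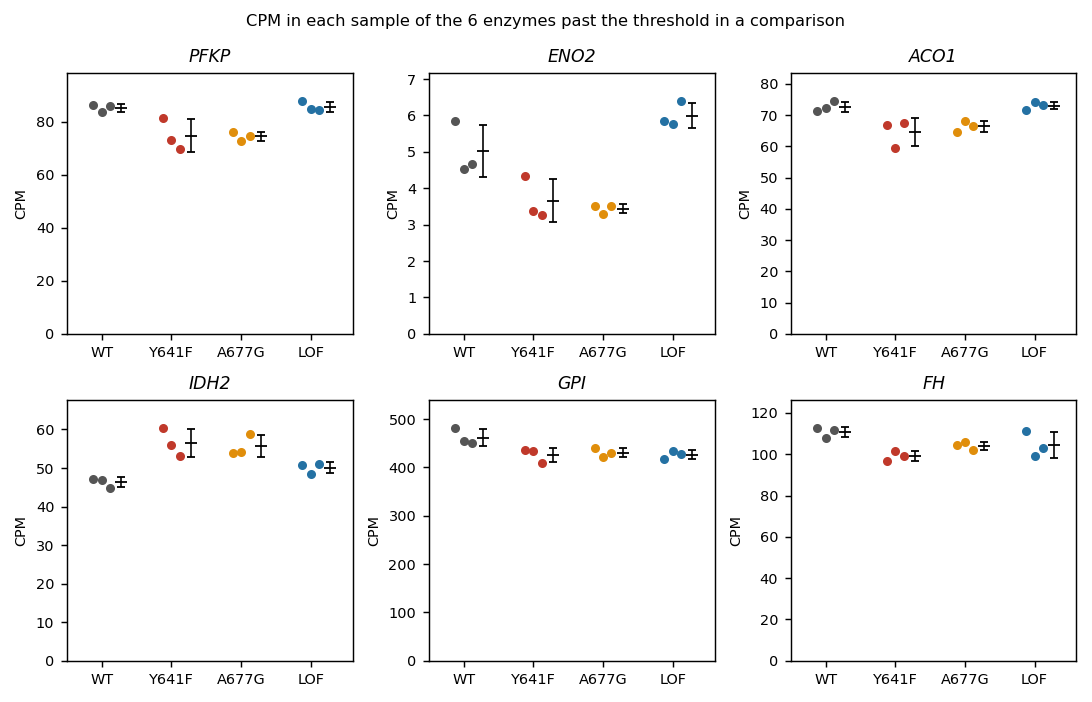
CPM of *PFKP*, *ENO2*, *ACO1*, *IDH2*, *GPI* and *FH* in each sample (points), with the mean and SD of the 3 replicates of a line beside them; every axis starts at 0. *PFKP*, *ENO2* and *ACO1* are lower in all 6 GOF samples than in the other 6, *IDH2* is higher in them, and *GPI* is lower in the 3 mutants than in WT cells.

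*ACO1* (ENSG00000122729.19, chromosome 9, 32384603 to 32454769) was at 71.3, 72.3 and 74.5 CPM in WT cells, 66.8, 59.5 and 67.4 CPM in Y641F cells, 64.4, 68.0 and 66.6 CPM in A677G cells, and 71.7, 74.1 and 73.3 CPM in the LOF line. All GOF samples were below those of the other lines. The log2 fold change was −0.17 in Y641F cells (SE 0.0470, edgeR quasi-likelihood adjusted p = 0.0176), and in A677G cells it was −0.13 and did not pass the threshold (edgeR adjusted p = 0.0778). In the LOF line it was 0.01, and the GOF lines differed from the LOF line by −0.16 (SE 0.0406, edgeR adjusted p = 0.00604). Without replicate 2 of Y641F its change was −0.11 (edgeR adjusted p = 0.147), without replicate 2 or 3 of WT −0.17 and −0.15 (edgeR adjusted p = 0.0587 and 0.0780), and without replicate 2 of the LOF line the difference of the GOF lines was −0.15 (edgeR adjusted p = 0.0536).

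*GPI* and *FH* were past the threshold in Y641F cells alone, but did not differ between Y641F cells and A677G cells or between the GOF lines and the LOF line by the same edgeR test. *GPI* (ENSG00000105220.17, chromosome 19, 34359480 to 34402413), glucose-6-phosphate isomerase, was at 481, 454 and 450 CPM in WT cells, 436, 433 and 410 CPM in Y641F cells, 440, 422 and 431 CPM in A677G cells, and 417, 435 and 428 CPM in the LOF line. The samples of the 3 mutants overlapped with each other and were all below those of WT. The log2 fold changes were −0.11 in Y641F cells (edgeR quasi-likelihood adjusted p = 0.0398), −0.10 in A677G cells (edgeR adjusted p = 0.0786) and −0.11 in the LOF line (edgeR adjusted p = 0.269), with a standard error of 0.0358 in Y641F cells. The GOF lines differed from the LOF line by 0.01, with a 95% interval from −0.06 to 0.07. In Y641F the adjusted p of *GPI* was above 0.05 in 10 of 25 alternative analyses, and it was 0.265 without replicate 1 of WT and 0.192 without replicate 3 of Y641F in the same edgeR test.

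*FH* (ENSG00000091483.8, chromosome 1, 241497511 to 241519799), the fumarase of the TCA cycle, was at 113, 108 and 112 CPM in WT cells, 96.6, 102 and 98.9 CPM in Y641F cells, 104, 106 and 102 CPM in A677G cells, and 111, 99.0 and 103 CPM in the LOF line. Both GOF lines lay below WT cells without overlap, and the LOF line overlapped with WT cells. The log2 fold change was −0.16 in Y641F cells (SE 0.0425, edgeR quasi-likelihood adjusted p = 0.0118), −0.09 in A677G cells (edgeR adjusted p = 0.215) and −0.08 in the LOF line (edgeR adjusted p = 0.619). Without replicate 1 of WT it was −0.15 in Y641F cells (edgeR adjusted p = 0.0628).

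The remaining 31 enzymes passed the threshold in none of the 5 comparisons. Apart from *ALDOC*, their log2 fold changes against WT cells ran from −0.11 to 0.09 over the 3 mutants, or from −7.61% to 6.55%, and their 95% intervals from −0.21 to 0.18. *ALDOC* was at 8.98, 9.37 and 8.45 CPM in WT cells and at 8.77, 7.46 and 6.48 CPM in Y641F cells, where the lines overlapped and its log2 fold change was −0.24 (SE 0.110, edgeR quasi-likelihood adjusted p = 0.217). In A677G it was −0.10 and in the LOF line −0.07. Without replicate 1 of Y641F, the sample that stood apart, both *ALDOC* and *ENO2* passed the threshold in Y641F cells, and 6 enzymes were lower there. Of the 14263 genes tested, 943 were then lower in Y641F cells, against 797 with all samples.

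In upper glycolysis, the hexokinases *HK1* and *HK2*, which trap glucose in the cell, had means of 123 and 94.1 CPM in WT cells and log2 fold changes from −0.05 (*HK2* in A677G cells) to 0.03 (*HK1* in A677G cells). *PFKL* had the highest value of the section among genes that did not pass the threshold, 0.09 in A677G cells, with a 95% interval from 0.004 to 0.18. *ALDOA* ran from −0.07 to −0.01 and *TPI1* from −0.02 to 0.03. In lower glycolysis, *GAPDH*, the phosphoglycerate kinase *PGK1*, the phosphoglycerate mutase *PGAM1*, *ENO1* and *PKM* ran from −0.05 (*ENO1* in Y641F cells) to 0.04 (*PKM* in the LOF line), and the 95% intervals of these 5 genes lay between −0.12 and 0.10.

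*GAPDH*, often used as a reference transcript, had 1881 ± 40.5 CPM (SD, n = 3) in WT cells, 1860 ± 50.2 in Y641F cells, 1913 ± 11.4 in A677G cells and 1890 ± 17.7 in the LOF line. Its 95% intervals against WT cells ran from −0.08 to 0.05, from −0.04 to 0.09 and from −0.06 to 0.07 on the log2 scale. *GAPDH* has 65 pseudogenes named after it in GENCODE and *PGAM1* has 13, and reads could be shared with them. Of the 37 enzymes, 17 have such pseudogenes, 117 in all, of which 2 (*TPI1P2* and *DLSTP1*) were in the count table, so that the counts of *GAPDH*, *PGAM1*, *TPI1*, *DLST* and the others are uncertain to that extent. Of the 6 enzymes past the threshold in a comparison, *FH* was the 1 with such a pseudogene.

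*LDHA* and *LDHB*, the subunits that favour lactate and pyruvate formation respectively, had log2 fold changes of −0.05 and −0.05 in Y641F cells, −0.00 and −0.02 in A677G cells and −0.00 and −0.02 in the LOF line. Per kilobase, *LDHB* was 2.28 times *LDHA* in WT cells, 2.28 times in Y641F cells, 2.25 times in A677G cells and 2.26 times in the LOF line. The log2 ratio of the 2 differed from WT cells by 0.00, −0.02 and −0.01 (two-sided exact permutation tests, p = 1, 0.7 and 0.9). At pyruvate entry, the pyruvate dehydrogenase subunits *PDHA1*, *PDHB*, *DLAT* and *DLD* and the carboxylase *PC* ran from −0.08 (*PDHA1* in Y641F cells) to 0.04 (*PDHB* in the LOF line). *PDHA1* was at 172, 171 and 169 CPM in WT cells, 157, 166 and 162 CPM in Y641F cells, 165, 162 and 158 CPM in A677G cells, and 164, 165 and 162 CPM in the LOF line, and all 9 mutant samples were below WT cells with no mutant past the threshold. The ratio of *PC* to *PDHA1* differed from WT cells by 0.09, 0.07 and 0.07 on the log2 scale (two-sided exact permutation tests, p = 0.3, 0.3 and 0.2).

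**Figure D4:**
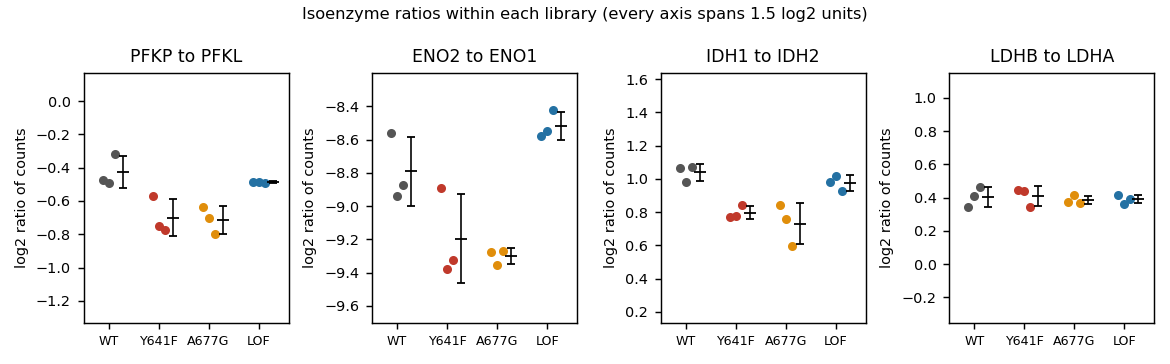
Log2 ratio of the counts of 2 isoenzymes within each library (points), with the mean and SD of the 3 replicates beside them, for *PFKP* to *PFKL*, *ENO2* to *ENO1*, *IDH1* to *IDH2* and *LDHB* to *LDHA*; every axis spans the same width. The first 3 ratios are lower in the 2 GOF lines than in WT cells by means of 0.24 to 0.51 (log2 differences from −0.51 to −0.24), with 1 sample of Y641F within the WT range for *ENO2* to *ENO1*, while *LDHB* to *LDHA* differs by at most 0.02 in size.

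In the TCA cycle, 12 of the 15 enzymes passed the threshold in none of the comparisons, and these ran from −0.11 (*OGDH* in Y641F cells) to 0.05 (*IDH3B* in the LOF line). The citrate synthase *CS* was at 285 ± 9.47 CPM (SD, n = 3) in WT cells and at 270.5 ± 12.6 in the LOF line, where its log2 fold change was −0.07, the lowest of the 15 in that line after *FH*. *OGDH* and *DLST*, subunits of the 2-oxoglutarate dehydrogenase complex, had −0.11 and −0.03 in Y641F cells and −0.00 and −0.08 in A677G cells. *OGDH* was at 75.6, 70.5 and 69.8 CPM in WT cells and at 62.1, 68.7 and 68.7 CPM in Y641F cells, without overlap but not past the threshold (edgeR quasi-likelihood adjusted p = 0.152). The subunits of succinyl-CoA synthetase, *SUCLA2*, *SUCLG1* and *SUCLG2*, ran from −0.06 to 0.05 and the malate dehydrogenases *MDH1* and *MDH2* from −0.05 to 0.04. The ratios of *HK2* to *HK1*, *ALDOC* to *ALDOA*, *MDH1* to *MDH2* and *SUCLA2* to *SUCLG2* differed from WT cells by between −0.21 and 0.08 on the log2 scale, with adjusted p of at least 0.3 over the 30 comparisons by exact permutation tests.

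Other genes of these pathways and of their regulation were examined in lists. Of 28 tested genes for glucose and pyruvate transport, bypass and control, 1 was lower and 1 higher in both GOF lines, and 0 passed the threshold in the LOF line by edgeR's quasi-likelihood test. Of all genes tested, 5.59% were lower and 2.09% higher in Y641F cells and 6.48% and 2.07% in A677G cells. In the LOF line 0.161% were lower and 0.14% higher. The medians of the list were 0.01, 0.02 and 0.02 in Y641F cells, A677G and the LOF line, beside 0.00 over all genes in each. *PFKFB2*, which sets the level of the phosphofructokinase activator fructose 2,6-bisphosphate, was at 31.7, 32.2 and 30.3 CPM in WT cells, 27.9, 27.4 and 27.6 CPM in Y641F cells, 27.0, 26.0 and 27.4 CPM in A677G cells, and 32.6, 31.2 and 33.3 CPM in the LOF line. All GOF samples lay below the rest. Its log2 fold change was −0.23 in A677G cells (SE 0.0587, edgeR quasi-likelihood adjusted p = 0.00873) and −0.25 in the GOF lines against the LOF line (edgeR adjusted p = 0.00049). In Y641F it was −0.18 (edgeR adjusted p = 0.0447), which was past the threshold in 8 of 25 alternative analyses.

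*SLC2A3*, a high-affinity glucose transporter, was at 1.27, 1.29 and 1.24 CPM in WT cells, 3.38, 2.00 and 1.82 CPM in Y641F cells, 2.29, 1.72 and 2.96 CPM in A677G cells, and 2.38, 2.04 and 2.11 CPM in the LOF line. All 9 mutant samples were above WT cells, and the mutants overlapped with each other. It rose by 0.92 in Y641F cells (SE 0.244, edgeR quasi-likelihood adjusted p = 0.0131) and by 0.87 in A677G cells (SE 0.245, edgeR adjusted p = 0.0189) on the log2 scale, was 0.78 in the LOF line (edgeR adjusted p = 0.288), and differed by 0.12 between the GOF lines and the LOF line. Without replicate 1 of Y641F its change in that line was 0.59 (edgeR adjusted p = 0.166), and without replicate 3 of A677G it was 0.66 in A677G cells (edgeR adjusted p = 0.161). The call in A677G cells was also lost without replicate 1, 2 or 3 of WT (edgeR adjusted p = 0.0661, 0.0655 and 0.0584) or replicate 1 of A677G. In Y641F cells *SLC2A3* was past the threshold in 22 of 25 alternative analyses and in A677G cells in 20 of 25. The main glucose transporter of most lines, *SLC2A1*, had log2 fold changes of −0.00, 0.08 and −0.04.

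Against the LOF line, the GOF lines were lower at *PFKFB2*, at *PDP1*, a phosphatase that activates pyruvate dehydrogenase (−0.18), and at *PDK4*, a kinase that inhibits it. They were higher at *TIGAR*, a phosphatase that lowers fructose 2,6-bisphosphate (0.16). These 3 lower and 1 higher of the 28 genes of the list stand beside 8.75% lower and 3.81% higher of all genes tested. Against WT cells, *TIGAR* had log2 fold changes of 0.03, 0.03 and −0.13 in Y641F cells, A677G and the LOF line. Its samples were below those of WT in the LOF line and overlapped with WT in the GOF lines. *PDP1* had −0.14, −0.16 and 0.03 in the same order, and neither gene passed the threshold against WT cells. *PDK4* was at 2.35, 1.86 and 2.20 CPM in WT cells, 1.95, 1.10 and 1.51 CPM in Y641F cells, 1.35, 1.33 and 2.19 CPM in A677G cells, and 2.38, 2.90 and 3.07 CPM in the LOF line. The GOF samples were all below the LOF samples and overlapped with WT cells, and the difference between the GOF lines and the LOF line was −0.83 (SE 0.196, edgeR quasi-likelihood adjusted p = 0.00282).

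Among 19 tested genes around the TCA cycle, which include the succinate dehydrogenase subunits *SDHA* to *SDHD*, and among 8 of the pentose phosphate pathway, 0 passed the threshold in any mutant against WT cells by the same edgeR test. Of all genes tested, 5.59% were lower and 2.09% higher in Y641F cells, and 6.48% and 2.07% in A677G cells. In the LOF line these shares were 0.161% and 0.14%. Between the GOF and LOF lines 1 gene of each list was higher, *NNT*, the mitochondrial transhydrogenase that makes NADPH (0.15, edgeR adjusted p = 0.0035), and *PGD*, an NADPH-making enzyme of the pentose phosphate pathway (0.13, edgeR adjusted p = 0.00691). In that comparison 0 genes of either list were lower, while 3.81% of all genes tested were higher and 8.75% lower. For *PGD* the log2 fold changes against WT cells were 0.03, 0.05 and −0.09 in Y641F cells, A677G and the LOF line. Those of *NNT* were 0.13, 0.10 and −0.04 in the same order.

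Of 19 tested hypoxia targets outside glycolysis, *EGLN3*, a prolyl hydroxylase of the hypoxia response, was lower in Y641F cells (−0.28) and A677G cells (−0.31), *NDRG1* (−0.19) and *LOX* (−0.49) were lower in A677G cells, and 0 passed the threshold in the LOF line. These counts of 1, 3 and 0 stand beside 5.59%, 6.48% and 0.161% of all genes tested that were lower. In Y641F cells *NDRG1* had −0.14 and *LOX* −0.46, not past the threshold (edgeR quasi-likelihood adjusted p = 0.1015 and 0.0715). Y641F and A677G cells differed by 0.06 at *NDRG1* and 0.03 at *LOX*, also not past it. *NDRG1* had −0.21 in the LOF line (edgeR quasi-likelihood adjusted p = 0.0599). The medians of this list were 0.02, 0.02 and 0.01, and *VEGFA*, a much used target, had −0.05, −0.02 and 0.06.

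Of 9 tested regulator genes, 2 were lower in Y641F cells, where 5.59% of all genes were, 3 in A677G cells, against 6.48%, and 0 passed the threshold in the LOF line, where 0.161% were lower. The medians of this list were −0.01, −0.06 and −0.02. *EPAS1* (ENSG00000116016.14, chromosome 2, 46293667 to 46386697), which encodes the hypoxia-inducible factor HIF-2α, was at 30.8, 28.1 and 27.5 CPM in WT cells, 20.6, 17.8 and 19.0 CPM in Y641F cells, 16.7, 17.5 and 18.4 CPM in A677G cells, and 27.8, 26.3 and 31.5 CPM in the LOF line. All GOF samples were below those of WT and the LOF line, which overlapped. Its log2 fold change was −0.59 in Y641F cells (SE 0.0741, edgeR quasi-likelihood adjusted p = 5.53e-07), −0.72 in A677G cells (SE 0.0747, edgeR adjusted p = 8.77e-09) and −0.02 in the LOF line. *HIF1A*, for the related factor HIF-1α, had 0.03, 0.06 and 0.05 and did not pass the threshold.

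*PPARGC1A* (ENSG00000109819.9, chromosome 4, 23755041 to 23904089), a coactivator known for driving mitochondrial genes, was at 5.85, 6.32 and 5.79 CPM in WT cells, 3.57, 3.49 and 3.97 CPM in Y641F cells, 3.68, 4.28 and 3.13 CPM in A677G cells, and 7.12, 6.52 and 6.61 CPM in the LOF line. Its groups were ordered without overlap, with the GOF lines lowest and the LOF line highest. The log2 fold change was −0.70 in Y641F cells (SE 0.138, edgeR quasi-likelihood adjusted p = 0.000582), −0.69 in A677G cells (SE 0.138, edgeR adjusted p = 0.000587) and 0.17 in the LOF line (edgeR adjusted p = 0.787). *MYC*, known to drive glycolytic genes, had −0.01 in Y641F cells, −0.19 in A677G cells (edgeR adjusted p = 0.00691) and −0.16 in the LOF line (edgeR adjusted p = 0.198). Whether the levels of these regulators and of the 37 enzymes are linked was not tested.

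**Figure D5:**
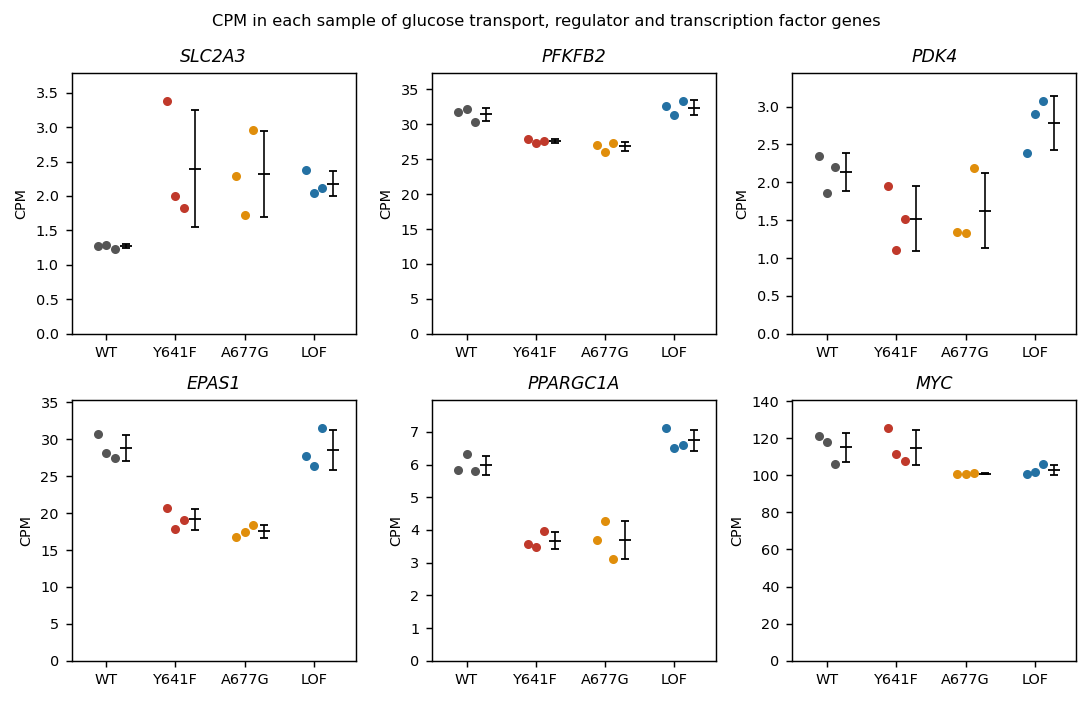
CPM of *SLC2A3*, *PFKFB2*, *PDK4*, *EPAS1*, *PPARGC1A* and *MYC* in each sample (points), with the mean and SD of the 3 replicates of a line beside them; every axis starts at 0. *EPAS1* and *PPARGC1A* are lower in all 6 GOF samples than in the other 6, and *SLC2A3* is higher in all 9 mutant samples than in WT cells.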

How the data were processed

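RNA-Seq libraries of 12 HEK293T samples (4 lines, 3 replicates each) were made, per the labels, with a stranded mRNA kit. The submitters' processing notes name GRCh38, Trim Galore 0.6.5, STAR 2.7.9a, Salmon 1.2.0 and edgeR 3.16. The authors deposited whole-number counts per gene symbol without normalization. The step from Salmon estimates to these counts and the filter that left 14438 genes are not given in the sources used here. Counts were assigned to genes, so isoforms and reads shared with pseudogenes could not be separated.

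Of these genes, 175 were left out because every replicate of the A677G line or every replicate of the LOF line had 0 counts, and the remaining 14263 all passed filterByExpr. The rule was not applied to zeros in WT or Y641F cells, so the shares of lower genes in A677G and LOF cells leave such genes out. In R 4.3.3 with edgeR 4.0.16, TMM factors and the quasi-likelihood test were applied to all samples together, with 1 coefficient per line and Benjamini-Hochberg adjustment over all genes tested. The study's methods name edgeR's exact test, run here as an alternative. CPM used TMM library sizes, and levels per kilobase the main transcript of GENCODE 44, which all 37 enzymes matched by symbol. Fold changes used the counts. Isoenzyme ratios were tested by exact permutation. The procedure was tested on simulated counts with known changes. Replicates of a line differed by more than sampling noise (chi-square per degree of freedom 3.33 to 14.9), so none were treated as 1 library.

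The 37 enzymes, the other gene lists and the tests were chosen with earlier results of these data known. Enzymes past the threshold in any comparison were described in full and the others by range; of each other list, up to 4 genes past the threshold with the largest changes were named. Alternatives were edgeR's exact test, DESeq2 1.42.0, upper-quartile factors, library totals, other filters on low counts, the genes at 0 kept, only the compared groups, replicate number as a block, limma 3.58.1 voom, removal of the GC trend, and each replicate left out in turn. Removal of the GC trend with the mean log level was added after the data were seen. Protein sequences were not used here, and the values of some listed genes are not reported here.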

Additional observations from a re-analysis of the deposited data

Results flagged for a closer look

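For 4 enzymes, the mean log2 fold change of the GOF lines differed from that of the LOF line by edgeR's quasi-likelihood test of the difference itself, adjusted by Benjamini-Hochberg across the whole table. The difference was −0.20 for *PFKP* (adjusted p = 0.000517 from that edgeR test), −0.76 for *ENO2* (adjusted p = 2.56e-05), −0.16 for *ACO1* (adjusted p = 0.00604) and 0.16 for *IDH2* (adjusted p = 0.0114). All 6 GOF samples were below the 3 LOF samples at the first 3 genes and above them at *IDH2*. The genes were picked by the test on these same samples, so this separation adds no support to it. The share of all genes separated in this way was not counted. Beside these 4 of 37 enzymes, 8.75% of all genes tested lay lower and 3.81% higher in GOF than in LOF cells.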

How the results depend on the processing

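Of the 4 enzymes lower in Y641F cells, 2 remained with library totals in place of TMM and 2 when just the compared groups were fitted (*PFKP* and *FH* in both), and 1 (*PFKP*) with the GC trend and mean log level of each sample removed, which was chosen after seeing the data. DESeq2 and upper-quartile factors each gave 5, with *ENO2* added. Leaving out 1 replicate gave 2 to 6. Of the 14263 genes tested, 797 were lower in Y641F cells in the main fit. They numbered 716 with library totals, 664 with just the compared groups and 668 with the GC trend and mean log level removed. With DESeq2 they numbered 836, with upper-quartile factors 901 and without a replicate 568 to 943. Of 2 lower in A677G cells there were 4 with edgeR's exact test, 4 with upper-quartile factors, 4 with only the compared groups and 4 with limma voom (*GPI* and *ACO1* added in each), 1 (*ENO2*) with the GC trend and mean log level removed, and 1 to 3 without a replicate. Lower genes among the 14263 tested numbered 924 in A677G cells in the main fit. They numbered 1275, 1026, 1121 and 1227 in the 4 alternatives that gave 4 enzymes, in that order. With the GC trend and mean log level removed they numbered 775, and without a replicate 682 to 1047. The 1 enzyme higher in A677G cells became 2 with the GC trend and mean log level removed. Higher genes among all those tested numbered 295 in the main fit and 1090 with that removal. Between the GOF and LOF lines 4 enzymes became 2 to 5 without a replicate, with *PFKP* and *ENO2* left without replicate 2 of the LOF line. Over all genes tested, 1248 were lower and 544 higher in that comparison in the main fit, and 979 and 349 without that replicate. They numbered 935 and 268 without replicate 1 of the LOF line, and 1433 and 672 without replicate 1 of Y641F. The *ACO1* call against the LOF line was also lost with the GC trend and mean log level removed, which gave 1056 and 1147 genes. *IDH2* was past the threshold in both GOF lines in all 25 alternatives, as was *PFKP* against the LOF line. The LOF line had 0 enzymes past the threshold against WT cells in all of them. No log2 fold change of a called gene turned its direction, and 99 of 975 such values lost the call.

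With the GC trend and mean log level removed, the share of lower genes among all changed genes was 58.5% in Y641F cells (668 lower, 474 higher) and 41.6% in A677G cells (775 and 1090), against 72.8% and 75.8%. Among changed genes between the GOF and LOF lines it was 47.9%, against 69.6%. In the LOF line it was 64.5% with library totals (20 and 11), against 53.5%, and 82.2% with the genes at 0 kept (139 and 30). Genes at 0 in every LOF sample cannot be higher there, so keeping them raises the lower share by the way they were chosen.

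The numbers of the replicates did not pair the samples: deviations of same-numbered samples from their group means correlated at −0.0557 to 0.0501 over 18 pairs. The replicate block gave 5 lower enzymes in Y641F cells, with *ENO2* added, 2 in A677G cells, 1 higher in each, 0 in the LOF line and 4 between the GOF and LOF lines. Over all genes tested the block gave 809 lower and 299 higher in Y641F cells and 933 and 305 in A677G cells. It gave 23 and 17 in the LOF line and 1253 and 555 between the GOF and LOF lines.

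Several calls outside the 37 enzymes were lost without 1 library, some of them without any of several libraries, while the log2 fold changes kept their direction. Without replicate 1 of WT, adjusted p in edgeR's quasi-likelihood test was 0.109 for *EGLN3* and 0.0942 for *NDRG1* in A677G cells, and 0.0807 for *MYC*. Without replicate 2 of A677G it was 0.0567 for *PFKFB2*. Without replicate 1 of the LOF line, the difference of the GOF lines had adjusted p of 0.0725 for *NNT*, 0.0749 for *PGD* and 0.0902 for *PDP1* in the same edgeR test, and without its replicate 3 0.153 for *TIGAR*. *LOX* in A677G cells was past the threshold in 14 of 25 alternatives. Setting no filter on low counts left the same genes. With 3 replicates a line, differences at *ENO2* (3.26 to 6.39 CPM) were measured less precisely than at the other called enzymes, and the p-values of isoenzyme ratios cannot go below 0.1.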
